A study of Rattus norvegicus with 12 samples.

Results

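The addition of dexamethasone to LiCl was examined in fetal rat metatarsals, the small long bones of the foot, by comparing 3 libraries from bones cultured with 1 µM dexamethasone and 10 mM LiCl (dexamethasone + LiCl) with 3 libraries from bones cultured with 10 mM LiCl. These were 6 of the 12 RNA-seq libraries of the study. The other 6 came from control medium and from 1 µM dexamethasone without LiCl, 3 each, and show the same steroid step in bones that had no lithium. The bones came from Sprague Dawley embryos at embryonic day 19 and were cultured for 72 h, and the medium of the LiCl group held ethanol as the vehicle. Each library was made from a pool of bones, so n = 3 pools per group, and the error given is that between pools of bones. By the paper's account the pools came from 3 rats, which the groups therefore shared. The main test did not pair them. Whole bones were crushed, and the RNA therefore mixes chondrocytes with perichondrium, vessels, blood-derived cells and remains of other tissue. Of 30045 gene symbols, the 12602 that reached 60 counts in 2 or more libraries were tested.

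Dexamethasone is a synthetic glucocorticoid. It binds the glucocorticoid receptor, a transcription factor that waits in the cytoplasm in a chaperone complex and, once bound to its ligand, enters the nucleus and attaches to DNA as a dimer or to other transcription factors. In the skeleton glucocorticoids are known for slowing the growth of long bones and for acting on bone, vessel and immune cells. Lithium inhibits glycogen synthase kinase 3 and thereby stabilises β-catenin, and here it was present in both groups compared.

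Total counts per library were 13866588 to 20644093 with LiCl and 9055581 to 17872189 with dexamethasone + LiCl. Levels are given as CPM, the counts of a gene relative to the library size after TMM scaling, and differences as log2 fold change ± SE from edgeR's quasi-likelihood test with Benjamini-Hochberg adjusted p. The chondrocyte identity of the tissue was plain in both groups. Col2a1, the main collagen of cartilage, lay at 49730.5, 40108 and 48297 CPM with LiCl and at 38269, 32156 and 52312 CPM with dexamethasone + LiCl. The 2 ranges overlapped, and 19 of 20 cartilage matrix genes did not pass the test.

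Dexamethasone changed 252 genes more than 2-fold at an adjusted p under 0.05 when it was added to LiCl. Of these, 170 were higher (1.35% of the genes tested) and 82 were lower (0.651%). The 3 dexamethasone + LiCl pools did not overlap with the 3 LiCl pools in any of the 252, against 25.5% of all genes tested whose pools did not overlap. With no minimum fold, 867 genes passed, 478 of them higher (3.79%) and 389 lower (3.09%), and these last shares are the background against which the counts of gene lists are read here. The median log2 change of all genes tested was -0.0021.

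Known target genes of the glucocorticoid receptor rose as a group. Of 31 tested, 20 rose and 1 fell at an adjusted p under 0.05 with no minimum fold, and their median log2 change was 0.85. Without LiCl, 20 of the 31 rose and 3 fell after dexamethasone, with a median of 0.88. The single fall with LiCl was that of Timp3, an inhibitor of matrix proteases, at -0.26 ± 0.07 (adjusted p = 0.0404). It was lost without control library 1, dexamethasone library 1, any of the LiCl libraries or any of the dexamethasone + LiCl libraries, with an adjusted p of up to 0.178. The falls numbered 2 without control library 3 and 3 with the replicate block.

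The glucocorticoid receptor dimer binds an inverted repeat with 3 free bases between its arms. The arms GNACA and TGTNC, spaced by any 3 bases so that the whole reads the same on both strands, were searched from 250 bases before to 50 bases after the start of each gene in RefSeq (GRCr8). They were present in 101 of 24206 promoters (0.417%) and in 17 of the 8274 promoters matched by symbol to tested genes (0.205%). Among genes called higher, 3 of 101 matched promoters held them (2.97%), and among genes called lower 0 of 51. The 3 promoters are shown because each belongs to a gene that rose, with the match in capitals and the rest in lower case, 5′ to 3′ on the strand of the gene. That of C1qb is chr5:154407778-154408077 on the minus strand, with the match starting at -173 from the start of the gene. That of Fam107a is chr15:19046331-19046630 on the plus strand, with the match at -210, and that of Map3k6 is chr5:150723995-150724294 on the plus strand, with the match at -181. A match is a description of the letters in this window.
C1qb: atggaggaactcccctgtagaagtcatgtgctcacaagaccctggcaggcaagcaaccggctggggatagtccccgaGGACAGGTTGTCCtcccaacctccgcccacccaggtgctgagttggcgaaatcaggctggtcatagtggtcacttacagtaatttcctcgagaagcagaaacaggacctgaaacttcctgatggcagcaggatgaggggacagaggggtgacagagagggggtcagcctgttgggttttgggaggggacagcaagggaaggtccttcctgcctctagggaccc
Fam107a: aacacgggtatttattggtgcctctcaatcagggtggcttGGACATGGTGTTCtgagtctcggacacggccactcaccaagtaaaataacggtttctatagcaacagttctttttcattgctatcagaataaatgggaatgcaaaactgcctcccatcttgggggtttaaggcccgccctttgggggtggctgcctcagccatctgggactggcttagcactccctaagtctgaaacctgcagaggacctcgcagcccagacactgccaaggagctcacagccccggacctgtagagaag
Map3k6: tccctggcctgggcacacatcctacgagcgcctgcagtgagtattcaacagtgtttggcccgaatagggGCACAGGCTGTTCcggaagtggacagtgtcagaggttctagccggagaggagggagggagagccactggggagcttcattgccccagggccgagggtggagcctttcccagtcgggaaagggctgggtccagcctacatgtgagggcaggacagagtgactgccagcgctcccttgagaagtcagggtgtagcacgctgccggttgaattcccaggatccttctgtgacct

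C1qb codes for a chain of complement C1q, Fam107a for an actin-associated protein and Map3k6 for a stress-activated protein kinase. C1qb lay at 7.22, 8.60 and 7.07 CPM with LiCl and 31.4, 39.5 and 33.9 CPM with dexamethasone + LiCl (2.19 ± 0.21, adjusted p = 8.13e-06). Map3k6, named here because of its promoter, lay at 4.93, 4.25 and 5.52 CPM and 20.98, 20.2 and 24.1 CPM (2.15 ± 0.14, adjusted p = 2.75e-08). Fam107a lay at 6.65, 3.62 and 4.26 CPM and 14.1, 9.58 and 7.94 CPM (1.12 ± 0.25, adjusted p = 0.00823). For all 3 genes the lowest dexamethasone + LiCl pool exceeded the highest LiCl pool, but the test of Fam107a missed the threshold without LiCl library 3 or without dexamethasone + LiCl library 1 (adjusted p of up to 0.0578).

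Fkbp5, a co-chaperone that lowers the affinity of the receptor for its ligand, had the smallest p of all targets. It lay at 26.7, 30.2 and 23.5 CPM in the LiCl libraries and at 231, 222 and 249.95 CPM with dexamethasone + LiCl, a log2 change of 3.13 ± 0.11 (adjusted p = 1.6e-11). Zbtb16, a zinc finger transcription factor, went from 2.29, 1.94 and 3.54 CPM to 31.03, 40.1 and 37.6 CPM (3.79 ± 0.22, adjusted p = 4e-08). In both genes each dexamethasone + LiCl pool stood far above each LiCl pool. Tsc22d3, which codes for the anti-inflammatory protein GILZ, lay at 100.3, 111 and 99.04 CPM and 290.2, 336 and 306 CPM (1.59 ± 0.10, adjusted p = 3.19e-08). Klf15, a transcription factor of amino acid and fat metabolism, lay at 9.93, 11.3 and 12.4 CPM and 39.01, 45.9 and 42.6 CPM (1.91 ± 0.10, adjusted p = 5.26e-09). Both genes were separated without overlap.

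Per1, a repressor of the circadian clock, lay at 47.3, 56.2 and 60.5 CPM with LiCl and 160.1, 168 and 179 CPM with dexamethasone + LiCl (1.63 ± 0.09, adjusted p = 6.01e-09). Lcn2, a siderophore-binding lipocalin of innate immunity, lay at 3.14, 2.52 and 2.18 CPM and 18.9, 16.97 and 15.7 CPM (2.73 ± 0.15, adjusted p = 6.01e-09). Sult1a1, a phenol sulfotransferase, lay at 6.72, 9.02 and 6.68 CPM and 42.1, 37.4 and 35.9 CPM (2.35 ± 0.15, adjusted p = 3.79e-08). None of these 3 genes had overlapping pools. Nfkbia, the inhibitor that holds NF-κB in the cytoplasm, rose by 1.13 ± 0.09 (adjusted p = 2.96e-07), and Dusp1, a phosphatase of MAP kinases, by 1.00 ± 0.10 (adjusted p = 3.07e-06). Smaller rises were those of Crispld2 at 0.85 ± 0.09 (adjusted p = 8.54e-06) and of the kinase Sgk1 at 0.59 ± 0.10 (adjusted p = 0.00102).

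**Figure D1:**
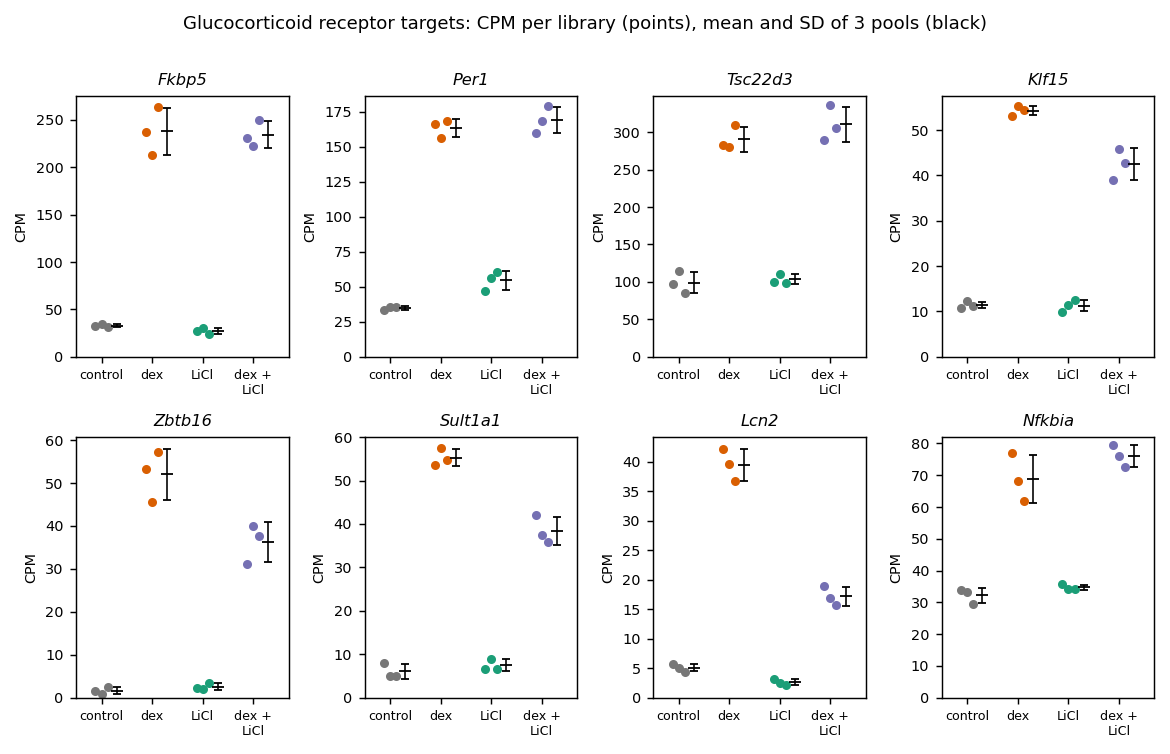
Levels of 8 glucocorticoid receptor targets in CPM (linear axes from 0) in each of the 12 libraries, by group, with the mean and SD of 3 pools in black. In each panel the 3 dexamethasone + LiCl points lie above the 3 LiCl points, for example at 231, 222 and 249.95 CPM against 26.7, 30.2 and 23.5 CPM for Fkbp5.

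The receptor itself was lower with dexamethasone. Nr3c1, which codes for the glucocorticoid receptor, lay at 131, 134 and 124 CPM with LiCl and at 88.8, 95.4 and 91.98 CPM with dexamethasone + LiCl (-0.49 ± 0.08, adjusted p = 0.000664). Nr3c2, the mineralocorticoid receptor, which also binds glucocorticoids, lay at 6.43, 4.93 and 5.28 CPM and 2.19, 1.28 and 1.93 CPM (-1.62 ± 0.28, adjusted p = 0.00137). The pools did not overlap for either receptor. Without LiCl the change of Nr3c1 was -0.22 ± 0.08 (adjusted p = 0.0988) and that of Nr3c2 was -1.29 ± 0.27 (adjusted p = 0.00430). The other 12 of the 15 genes of the receptor and its chaperones, Fkbp5 aside, did not pass. Serpina6, which codes for corticosteroid-binding globulin, the plasma carrier of natural glucocorticoids, fell by 2.03 ± 0.39 (adjusted p = 0.00307) from 3.86, 2.31 and 4.46 CPM to 0.983, 0.730 and 0.876 CPM.

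The largest rise was that of Cd163, the scavenger receptor of macrophages for haemoglobin bound to haptoglobin. Its counts were 4, 2 and 1 in the LiCl libraries and 79, 127 and 133 in the dexamethasone + LiCl libraries, which is 0.286, 0.105 and 0.0484 CPM and 8.63, 11.6 and 7.77 CPM (6.05 ± 0.38, adjusted p = 2.55e-08). With LiCl the gene was thus close to 0, and the size of the fold change depends on those few counts. Cd101, an immunoglobulin-like membrane protein of leukocytes, had counts of 3, 9 and 18 and 167, 188 and 339 (5.04 ± 0.25, adjusted p = 1.94e-09). Tnni1, the troponin I of slow muscle, lay at 2.86, 3.67 and 4.60 CPM and 41.9, 66.3 and 49.8 CPM (3.80 ± 0.27, adjusted p = 9.44e-07). Other large rises with separated pools were those of Phactr3, Mt1a, Srgn, Prodh, Mgst2 and Myo16.

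Prodh codes for proline dehydrogenase, the first enzyme of proline breakdown, and lay at 2.07, 2.15 and 3.10 CPM and 23.5, 18.7 and 23.8 CPM (3.15 ± 0.18, adjusted p = 1.3e-08). Cytl1, a cytokine-like protein made by chondrocytes, lay at 12.3, 14.1 and 9.98 CPM and 149, 139.5 and 66.9 CPM (3.29 ± 0.38, adjusted p = 0.000482). Both genes had a gap between the groups, although the dexamethasone + LiCl pools of Cytl1 differed among themselves more than 2-fold. Mt1a, a metal-binding metallothionein, had counts of 4, 7 and 6 and 70, 68 and 88 (4.27 ± 0.37, adjusted p = 7.49e-07). Metallothionein genes are near-identical copies that can share reads, so the level of any 1 of them is uncertain.

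The largest falls among called genes were those of Esm1 and Mmp9. Esm1, which codes for the proteoglycan endocan of activated endothelium, lay at 7.86, 11.4 and 8.33 CPM with LiCl and 0.874, 1.64 and 1.05 CPM with dexamethasone + LiCl (-2.95 ± 0.39, adjusted p = 0.000177). Mmp9, the gelatinase B of osteoclasts and invading vessels, followed with 29.5, 13.4 and 30.1 CPM and 3.93, 1.82 and 5.66 CPM (-2.60 ± 0.38, adjusted p = 0.00157). In both genes the highest dexamethasone + LiCl pool lay under the lowest LiCl pool. Fcrl2, an Fc receptor-like protein, fell by 2.43 ± 0.22 (adjusted p = 1.43e-06), and Prdm1, a transcriptional repressor of lymphoid and myeloid cells, fell by 2.01 ± 0.28 (adjusted p = 0.000174).

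Endothelial markers fell where they changed. Of 22 tested, 11 fell and 0 rose, also 0 at an unadjusted p under 0.05 and 0 by DESeq2, and the median log2 change of the 22 was -0.74. Without LiCl, 17 fell and 0 rose, with a median of -0.98. The summed level of the 22 markers was 380.4 to 427.7 CPM in the LiCl libraries and 249.0 to 258.4 CPM in the dexamethasone + LiCl libraries, with no overlap. Fewer endothelial cells and less RNA per endothelial cell cannot be told apart in these libraries.

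Kdr, the main receptor for VEGF on endothelium, lay at 22.9, 27.6 and 27.1 CPM with LiCl and 5.46, 3.65 and 5.08 CPM with dexamethasone + LiCl (-2.45 ± 0.16, adjusted p = 4.61e-08). Cd93, an endothelial lectin-like receptor, lay at 43.4, 47.4 and 45.2 CPM and 13.9, 13.7 and 9.58 CPM (-1.90 ± 0.13, adjusted p = 5.32e-08). Cdh5, the cadherin of endothelial junctions, lay at 55.96, 50.9 and 50.8 CPM and 32.8, 27.6 and 28.4 CPM (-0.83 ± 0.09, adjusted p = 1.31e-05). The falls were thus unequal in size, from more than 5-fold for Kdr to less than 2-fold for Cdh5, with no overlap of pools in any of the 3. Tie1, an endothelial receptor tyrosine kinase, fell by 1.25 ± 0.19 (adjusted p = 0.000426). Pecam1, the junction protein CD31, did not pass, with 23.2, 29.7 and 31.7 CPM against 21.5, 26.5 and 20.5 CPM and overlapping pools (-0.31 ± 0.16, adjusted p = 0.355).

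Ligands of vessel growth did not move one way. Of 8 VEGF and angiopoietin ligands, 2 rose and 1 fell, with a median log2 change of -0.08. Figf, which codes for VEGF-D, rose from 6.65, 8.97 and 7.85 CPM to 24.3, 25.5 and 23.6 CPM (1.63 ± 0.14, adjusted p = 5.99e-07). Apln, which codes for the peptide apelin, fell from 20.2, 26.96 and 22.8 CPM to 10.5, 11.3 and 9.29 CPM (-1.18 ± 0.15, adjusted p = 7.97e-05). Neither gene had overlapping pools. The other rise was that of Angpt2, an antagonist of the receptor Tie2, at 0.66 ± 0.15 (adjusted p = 0.0118), which was lost without LiCl library 3, dexamethasone + LiCl library 1 or dexamethasone + LiCl library 2 (adjusted p of up to 0.0791).

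The Notch pathway changed in its endothelial ligand and in a feedback gene. Of 11 members tested, 2 fell and 0 rose (0 also at an unadjusted p under 0.05 and by DESeq2), with a median of 0.02. Dll4, the Notch ligand of sprouting endothelium, lay at 8.65, 9.96 and 9.98 CPM and 2.95, 2.28 and 1.69 CPM (-2.10 ± 0.24, adjusted p = 2.25e-05). Nrarp, a feedback target of Notch, had counts of 20, 39 and 30 and 5, 3 and 7 (-2.01 ± 0.37, adjusted p = 0.00224), and it dropped under the count minimum without control library 1 or control library 3, which left 1 fall. The summed endothelial markers moved in the same libraries, and their part in the change of Dll4 was not tested.

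Macrophage markers moved in both directions. Of 17 tested, 7 rose and 2 fell, and the median log2 change was 0.21. Without LiCl, 9 rose and 3 fell, with a median of 0.69. Mrc1, the mannose receptor, lay at 14.6, 16.05 and 13.2 CPM and 40.2, 46.3 and 45.9 CPM (1.60 ± 0.22, adjusted p = 0.000471). C1qc, another chain of complement C1q, lay at 8.93, 10.6 and 8.33 CPM and 39.3, 49.1 and 40.2 CPM (2.20 ± 0.24, adjusted p = 6.28e-05). Both genes rose without overlap, as did Ctss, which codes for the lysosomal protease cathepsin S (1.24 ± 0.20, adjusted p = 0.000643).

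The markers that fell were Mpeg1 and Emr1. Mpeg1, the pore-forming protein perforin-2, lay at 19.6, 18.9 and 18.6 CPM with LiCl and 12.3, 9.76 and 8.94 CPM with dexamethasone + LiCl (-0.90 ± 0.17, adjusted p = 0.00313). Emr1, the antigen F4/80, lay at 4.36, 6.82 and 6.30 CPM and 2.19, 2.19 and 2.10 CPM (-1.44 ± 0.29, adjusted p = 0.00412). Listed markers under the count minimum were not tested. Of these, Cx3cr1 had counts of 12, 13 and 14 with LiCl and 0, 0 and 1 with dexamethasone + LiCl. Lyve1 went the other way, with counts of 9, 12 and 11 and 33, 29 and 73. The pools of Csf1r and Cd68 overlapped between the groups. Csf1r, the receptor for the macrophage growth factor CSF1, lay at 14.9, 15.9 and 15.98 CPM and 13.003, 17.7 and 13.4 CPM (-0.09 ± 0.17, adjusted p = 0.889). Cd68, a lysosomal glycoprotein, lay at 16.2, 13.7 and 15.9 CPM and 14.6, 15.1 and 15.8 CPM (-0.00 ± 0.12, adjusted p = 0.997). The summed level of the 17 markers was 238.2 to 274.7 CPM with LiCl and 371.8 to 395.7 CPM with dexamethasone + LiCl.

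**Figure D2:**
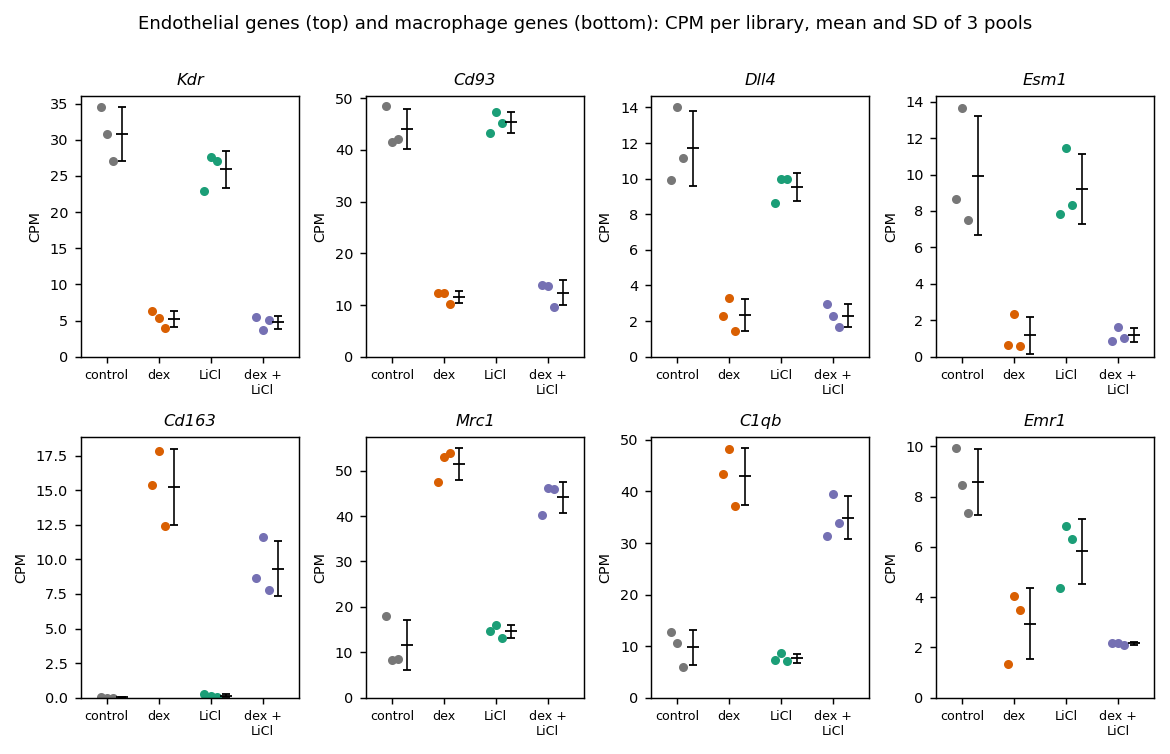
Levels of 4 endothelial genes (upper row) and 4 macrophage genes (lower row) in CPM (linear axes from 0) in each of the 12 libraries, with the mean and SD of 3 pools in black. Kdr, Cd93, Dll4 and Esm1 are lower in each dexamethasone + LiCl pool than in each LiCl pool, and so is Emr1, whereas Cd163, Mrc1 and C1qb are higher.

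Complement genes rose where they changed. Of 16 tested, 4 rose and 0 fell (0 also at an unadjusted p under 0.05 and by DESeq2), with a median of 0.32. The 4 were the C1q chains C1qa, C1qb and C1qc and the regulator Cd55. The count was 2 without LiCl library 1 or dexamethasone + LiCl library 2 and 7 with the replicate block. The chains of C1q are also on the list of macrophage markers. Of 8 chemokine and interleukin genes tested, 2 rose and 1 fell, with a median of 0.06. Il1r1, the signalling receptor for interleukin-1, rose from 23.2, 22.3 and 23.2 CPM to 64.3, 60.04 and 56.4 CPM (1.39 ± 0.09, adjusted p = 3.19e-08). Cxcl13, a chemokine that attracts B cells, fell from 10.9, 12.95 and 11.1 CPM to 2.73, 4.84 and 4.26 CPM (-1.54 ± 0.21, adjusted p = 0.000100). Both genes were separated without overlap. The other rise was that of Cx3cl1, the membrane-bound chemokine fractalkine (0.65 ± 0.18, adjusted p = 0.0416), which was lost without control library 1, dexamethasone library 1, dexamethasone library 3, LiCl library 2, LiCl library 3, dexamethasone + LiCl library 2 or dexamethasone + LiCl library 3 (adjusted p of up to 0.260).

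Osteoclast genes were scarce. Of 13 listed, 6 were tested, of which 2 fell and 1 rose, with a median of -0.56. The 2 that fell were Mmp9 and Acp5, the tartrate-resistant acid phosphatase, which fell by 0.97 ± 0.24 (adjusted p = 0.0218). The fall of Acp5 was lost without LiCl library 3, dexamethasone + LiCl library 1 or dexamethasone + LiCl library 3 (adjusted p of up to 0.131). Itgb3, the integrin β3 chain of osteoclasts and platelets, rose from 4.36, 5.61 and 7.36 CPM to 11.4, 12.2 and 11.7 CPM (1.01 ± 0.17, adjusted p = 0.00113). Ctsk, the collagen-cleaving cathepsin K, lay at 76.9, 72.4 and 80.8 CPM and 69.3, 66.7 and 77.1 CPM with overlapping pools (-0.11 ± 0.08, adjusted p = 0.634). With the replicate block 3 members fell. Members under the count minimum were not tested. Of these, Atp6v0d2 had counts of 17, 7 and 32 with LiCl and 2, 0 and 0 with dexamethasone + LiCl. Those of Siglec15 were 8, 2 and 10 and 0, 0 and 0, and those of Oscar 9, 14 and 13 and 7, 1 and 5. Tnfrsf11a overlapped, with counts of 17, 14 and 20 and 3, 5 and 21. These counts are not scaled for library size. Set against library totals, Oscar overlapped as well. It had 7 of 9055581 counts in dexamethasone + LiCl library 1 and 14 of 18651019 in LiCl library 2.

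Skeletal muscle genes rose. Of 11 tested, 8 rose and 1 fell, and the median log2 change was 1.12. Without LiCl, 4 rose and 1 fell, with a median of 0.65. Another 10 listed markers, among them Myod1, Myog and Pax7, were under the count minimum. Ldb3, a protein of the muscle Z-band, lay at 5.36, 5.09 and 4.60 CPM and 22.1, 20.3 and 20.1 CPM (2.05 ± 0.14, adjusted p = 5.36e-08). Myl1, a fast myosin light chain, lay at 3.93, 3.57 and 4.31 CPM and 11.9, 9.95 and 8.70 CPM (1.36 ± 0.20, adjusted p = 0.000218). Acta1, the actin of skeletal muscle, lay at 8.86, 5.87 and 6.78 CPM and 19.9, 18.3 and 14.4 CPM (1.29 ± 0.23, adjusted p = 0.00140). These 3 rises were all free of overlap. Srl, the sarcoplasmic reticulum protein sarcalumenin, was the member that fell (-1.13 ± 0.17, adjusted p = 0.000323). The 11 markers summed to 101.0 to 124.4 CPM with LiCl and 208.7 to 251.9 CPM with dexamethasone + LiCl, with no overlap.

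Markers of epidermis, fat, smooth muscle and tendon were counted in the same way. Of 7 epidermis and desmosome genes tested, 4 rose and 1 fell, with a median of 0.83. Ppl, the desmosomal linker periplakin, rose from 1.07, 3.46 and 2.71 CPM to 13.9, 11.5 and 11.3 CPM (2.28 ± 0.26, adjusted p = 1.95e-05), while the keratins Krt5 and Krt14 that define epidermis were under the count minimum. Fabp4, the fatty acid carrier of adipocytes and capillary endothelium, was the member of 6 adipocyte markers tested that rose, from 2.86, 5.61 and 3.73 CPM to 23.2, 33.3 and 21.7 CPM (2.65 ± 0.31, adjusted p = 0.000218). Pparg, Plin1 and Lep, which define adipocytes, were under the count minimum. Of 10 smooth muscle and pericyte markers, Mcam alone passed (-0.77 ± 0.11, adjusted p = 0.000167). None of 11 tendon and perichondrium genes passed by edgeR or by DESeq2, with 1 at an unadjusted p under 0.05.

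Most genes of the cartilage matrix did not pass the test. Of 20 cartilage matrix genes, 1 fell and 0 rose (1 rose at an unadjusted p under 0.05 and 1 by DESeq2), with a median of -0.05. The member that fell was Matn4, the matrilin 4 of the cartilage network, from 128, 138 and 168 CPM to 85.7, 86.04 and 92.7 CPM (-0.71 ± 0.12, adjusted p = 0.000744). The count of falls was 2 without dexamethasone library 2 or dexamethasone library 3 and 2 with the replicate block. Acan, the core protein of the proteoglycan aggrecan, lay at 6869.5, 4841 and 6589 CPM and 5379.6, 4421 and 7881 CPM (-0.05 ± 0.25, adjusted p = 0.967). Sox9, the master transcription factor of chondrocytes, lay at 313, 270.3 and 328 CPM and 299.6, 281 and 359 CPM (0.04 ± 0.15, adjusted p = 0.947). The pools of both genes overlapped between the groups.

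Among 15 genes of hypertrophic chondrocytes, the large cells that precede ossification, 2 rose and 1 fell, with a median of -0.04. Col10a1, the collagen that defines these cells, lay at 1293, 1412 and 1180.4 CPM with LiCl and 2795, 2336 and 2529 CPM with dexamethasone + LiCl (0.98 ± 0.15, adjusted p = 0.000471). Spp1, which codes for osteopontin, lay at 60.6, 44.2 and 49.8 CPM and 144, 156 and 144 CPM (1.53 ± 0.13, adjusted p = 1.53e-06). Panx3, a channel protein of these cells and of osteoblasts, lay at 192, 141 and 156 CPM and 98.8, 69.5 and 93.97 CPM (-0.90 ± 0.17, adjusted p = 0.00470). No pools overlapped in these 3 genes, so members of the list moved in opposite directions. The count of falls was 2 without control library 2 and 3 in a fit of the 6 libraries alone.

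The osteoblast list of 17 gave 3 rises and 0 falls (2 falls at an unadjusted p under 0.05 and 1 by DESeq2), with a median of -0.08. The rises were those of Spp1, of Postn, which codes for the matrix protein periostin (1.06 ± 0.15, adjusted p = 0.000166), and of Sparc, the osteonectin of bone matrix (0.37 ± 0.09, adjusted p = 0.0223). Sparc did not pass without any 1 of the 6 libraries compared (adjusted p of up to 0.0930). Runx2, the transcription factor that starts the osteoblast lineage, had a mean of 228 CPM and 217 CPM (-0.07 ± 0.09, adjusted p = 0.799). Alpl, the tissue-nonspecific alkaline phosphatase, lay at 403, 319 and 364 CPM and 381, 298 and 470.00 CPM (0.08 ± 0.23, adjusted p = 0.933). Neither differed beyond the spread between pools. With the replicate block, and without control library 1, control library 2, dexamethasone library 2 or LiCl library 2, 1 member fell.

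Of 25 collagens outside the cartilage network, 5 rose and 2 fell, with a median of 0.04. The 3 main chains of collagen VI, the beaded collagen around chondrocytes, were among the rises. Col6a1 lay at 1917, 1895 and 2019.7 CPM with LiCl and 3181, 3126 and 3359.9 CPM with dexamethasone + LiCl (0.73 ± 0.09, adjusted p = 4.22e-05). Col6a2 rose by 0.66 ± 0.09 (adjusted p = 0.000127) and Col6a3 by 0.67 ± 0.13 (adjusted p = 0.00414). The minor chain Col6a5 fell, from counts of 35, 31 and 35 to 6, 4 and 3 (-2.40 ± 0.44, adjusted p = 0.00182), outside the list. The 2 falls on the list became 1 without LiCl library 2, LiCl library 3 or dexamethasone + LiCl library 2, and 4 with the replicate block.

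Of 20 matrix proteases and their inhibitors, 6 fell and 3 rose, with a median of -0.17. Mmp2, the gelatinase A, lay at 1161, 1057 and 1015 CPM and 820.3, 753 and 716 CPM (-0.50 ± 0.10, adjusted p = 0.00408). Mmp15, a membrane-bound protease, lay at 5.57, 5.35 and 5.33 CPM and 1.53, 2.10 and 1.46 CPM (-1.68 ± 0.20, adjusted p = 3.01e-05). Timp4, an inhibitor of these enzymes, rose from 3.14, 2.99 and 4.17 CPM to 12.6, 11.04 and 11.7 CPM (1.76 ± 0.15, adjusted p = 6.27e-07). The pools were apart in all 3 genes. The count of rises was 5 without control library 2 and 6 with the replicate block.

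**Figure D3:**
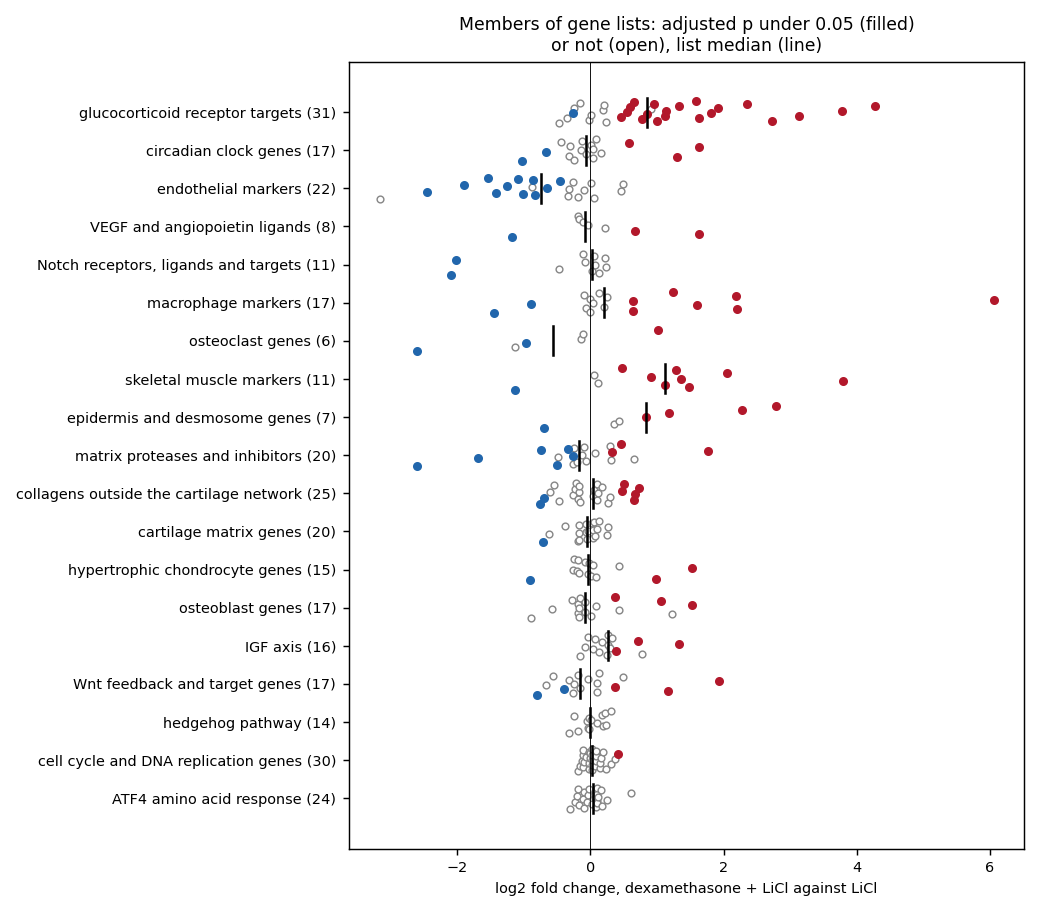
Log2 fold change of dexamethasone + LiCl against LiCl for each tested member of 19 gene lists (number tested in brackets), filled red or blue at an adjusted p under 0.05 and open otherwise, with the list median as a black line. The median is 0.85 for glucocorticoid receptor targets, 1.12 for skeletal muscle markers and -0.74 for endothelial markers, and close to 0 for the cartilage, hedgehog, cell cycle and ATF4 lists.

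Few members passed in the pathways that set growth plate length. Of 16 genes of the IGF axis, 3 rose and 0 fell (0 also at an unadjusted p under 0.05 and by DESeq2), with a median of 0.26. Ghr, the growth hormone receptor, lay at 99.3, 113 and 109.7 CPM and 174, 191 and 165 CPM (0.72 ± 0.09, adjusted p = 2.88e-05). Igfbp2, a binding protein of the growth factors, lay at 14.6, 20.4 and 19.03 CPM and 56.7, 43.2 and 37.3 CPM (1.32 ± 0.16, adjusted p = 4.22e-05). Both genes were free of overlap. Igf1 rose by 0.39 ± 0.10 (adjusted p = 0.0203), a call lost without LiCl library 1, LiCl library 3, dexamethasone + LiCl library 2 or dexamethasone + LiCl library 3 (adjusted p of up to 0.116). The rises numbered 5 without control library 2 and 6 with the replicate block.

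None of 14 hedgehog genes passed by edgeR, with 3 higher and 0 lower at an unadjusted p under 0.05 and 1 higher by DESeq2, and their median was -0.0064. The count was 2 higher with the replicate block and without control library 2, and 1 without dexamethasone library 2. A fit of the 6 libraries alone gave 3 higher and 1 lower. Ihh, the hedgehog ligand of prehypertrophic chondrocytes, lay at 139.9, 123 and 131 CPM and 123, 123 and 149.5 CPM (0.01 ± 0.16, adjusted p = 0.992). Ptch1, the receptor and a target gene of the pathway, lay at 442, 429 and 446 CPM and 394, 395 and 479.8 CPM (-0.05 ± 0.14, adjusted p = 0.922). The pools of both genes overlapped. Of 30 cell cycle and replication genes, 1 rose and 0 fell (0 also at an unadjusted p under 0.05 and by DESeq2), with a median of 0.02. That gene was the cyclin Ccnd3 at 0.41 ± 0.11 (adjusted p = 0.0333), which was lost without LiCl library 1, LiCl library 3, dexamethasone + LiCl library 2 or dexamethasone + LiCl library 3 (adjusted p of up to 0.184). The replicate block gave 3. Over all genes tested, 3.79% rose at an adjusted p under 0.05, and 1 of 30 is near that share.

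Lithium acts on the Wnt pathway and was present in both groups. Of 17 Wnt feedback and target genes, 3 rose and 2 fell, with a median of -0.16. Lgr5, a receptor for R-spondins, lay at 11.8, 12.7 and 10.99 CPM and 58.02, 42.4 and 36.8 CPM (1.94 ± 0.16, adjusted p = 5.55e-07). Cd44, the hyaluronan receptor, lay at 35.9, 38.4 and 40.1 CPM and 81.8, 99.2 and 75.5 CPM (1.16 ± 0.12, adjusted p = 5.3e-06). Notum, a deacylase that shuts off Wnt ligands, lay at 48.8, 43.3 and 50.5 CPM and 28.2, 24.8 and 29.02 CPM (-0.80 ± 0.13, adjusted p = 0.000797). The groups were apart in these 3 genes, in both directions. The falls numbered 1 without LiCl library 2, LiCl library 3, dexamethasone + LiCl library 1 or dexamethasone + LiCl library 3, and 4 with the replicate block.

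Of 8 secreted Wnt antagonists, 2 fell and 0 rose (0 also at an unadjusted p under 0.05 and by DESeq2), with a median of -0.17. Sfrp2, a decoy for Wnt ligands, lay at 38.4, 38.7 and 37.1 CPM and 24.8, 24.1 and 24.2 CPM without overlap (-0.65 ± 0.08, adjusted p = 8.37e-05). The other was Sfrp1 (-0.44 ± 0.11, adjusted p = 0.0148), lost without LiCl library 1, LiCl library 2, dexamethasone + LiCl library 1 or dexamethasone + LiCl library 2 (adjusted p of up to 0.0958). Of 17 Wnt ligands listed, 6 were tested, of which 2 rose and 0 fell, with a median of 0.14. Wnt4, a ligand of developing joints and cartilage, rose from 10.9, 8.18 and 8.81 CPM to 19.7, 16.2 and 23.2 CPM (1.10 ± 0.20, adjusted p = 0.00194). The rise of Wnt11 (0.47, adjusted p = 0.0297) was lost without any of the LiCl libraries or dexamethasone + LiCl library 2 or 3. Under the count minimum, Wnt6 had counts of 17, 13 and 20 with LiCl and 2, 3 and 7 with dexamethasone + LiCl. Those of Wnt10a were 38, 26 and 19 and 4, 5 and 11. Wnt2 went the other way, with 1, 0 and 1 and 6, 13 and 8.

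In the TGF-β and activin list of 16, 3 rose and 2 fell, with a median of -0.04. Tgfbr3, the co-receptor betaglycan, lay at 88.1, 86.4 and 85.7 CPM and 163, 176 and 161 CPM (0.94 ± 0.09, adjusted p = 2.14e-06). Inhba, the βA chain of activin A, lay at 31.4, 30.7 and 27.8 CPM and 17.7, 20.99 and 16.5 CPM (-0.71 ± 0.12, adjusted p = 0.000811). The pools did not overlap in either gene. In the BMP and GDF list of 23, the falls were those of the antagonist Grem1 (-1.11 ± 0.16, adjusted p = 0.000352) and of the ligand Bmp2 (-0.42 ± 0.09, adjusted p = 0.00859), and 2 members rose. Those rises numbered 0 without dexamethasone + LiCl library 3 and 1 without LiCl library 1, LiCl library 2, LiCl library 3 or dexamethasone + LiCl library 2. The median of the 23 was -0.02.

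Clock genes moved in both directions. Of 17 tested, 3 rose and 2 fell, with a median of -0.07. Besides Per1, the rises were those of Nfil3, a repressor that competes for D-box sites, from 8.50, 9.70 and 9.30 CPM to 20.5, 23.4 and 23.8 CPM (1.30 ± 0.15, adjusted p = 2.19e-05), and of Per2 (0.57 ± 0.09, adjusted p = 0.000626). Per3, their paralogue, fell from 76.5, 92.3 and 86.8 CPM to 39.8, 49.8 and 36.3 CPM (-1.03 ± 0.13, adjusted p = 6.28e-05). Nr1d2, the nuclear receptor REV-ERBβ that represses the clock, fell by 0.67 ± 0.10 (adjusted p = 0.000481). Each of these genes had separated pools, and their counts were the same in each alternative run. All bones were harvested after 72 h, so these are levels at 1 time.

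Genes of metabolism were counted in 4 lists. Slc2a4, the insulin-responsive glucose transporter GLUT4, lay at 4.002, 5.03 and 3.73 CPM and 19.7, 16.6 and 17.8 CPM (2.07 ± 0.16, adjusted p = 1.91e-07). Each dexamethasone + LiCl pool exceeded each LiCl pool. Of 22 glycolysis and glucose transport genes 2 rose, Slc2a4 and the pyruvate dehydrogenase kinase Pdk4 (0.66 ± 0.15, adjusted p = 0.0133), and 0 fell (0 also at an unadjusted p under 0.05 and by DESeq2), with a median of 0.05. The call of Pdk4 was lost without LiCl library 2, LiCl library 3 or dexamethasone + LiCl library 3 (adjusted p of up to 0.0896). None of 24 genes of the ATF4 amino acid response passed by edgeR or DESeq2, with 1 higher and 1 lower at an unadjusted p under 0.05 and a median of 0.04. There 1 fell with the replicate block and without dexamethasone + LiCl library 3. Of 17 genes of fatty acid synthesis and oxidation, 2 rose, Pdk4 among them, and 0 fell (0 also at an unadjusted p under 0.05 and by DESeq2), with a median of 0.09. The rises numbered 1 without LiCl library 2, LiCl library 3 or dexamethasone + LiCl library 3.

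Of 20 genes of cholesterol synthesis, 4 rose and 0 fell (0 also at an unadjusted p under 0.05 and by DESeq2), with a median of 0.11. The log2 change was positive for 19 of the 20, and 7 were higher at an unadjusted p under 0.05. Sqle, the squalene epoxidase, lay at 76.1, 67.97 and 74.1 CPM with LiCl and 88.5, 102 and 89.5 CPM with dexamethasone + LiCl (0.36 ± 0.08, adjusted p = 0.0109). Idi1, an isomerase of the isoprenoid precursors, lay at 67.2, 64.5 and 59.4 CPM and 81.5, 103 and 80.8 CPM (0.48 ± 0.11, adjusted p = 0.0151). The other rises were those of the squalene synthase Fdft1 (0.30 ± 0.08, adjusted p = 0.0267) and of the sterol desaturase Sc5d (0.26 ± 0.07, adjusted p = 0.0470). All 4 rises were free of overlap. Sc5d did not pass without any 1 of the 6 libraries compared, nor without library 1 or 3 of control or of dexamethasone (adjusted p of up to 0.201). The 20 genes summed to 1624 to 1742 CPM with LiCl and 1886 to 1933 CPM with dexamethasone + LiCl. The count of rises was 0 without dexamethasone + LiCl library 2, 1 without LiCl library 2 or LiCl library 3, and 2 without LiCl library 1 or dexamethasone + LiCl library 1.

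Among 14 genes of the sodium pump and sodium transport, 3 rose and 0 fell (1 fell at an unadjusted p under 0.05 and 0 by DESeq2), with a median of 0.11. Atp1b1, the β1 subunit of the sodium pump, lay at 55.6, 47.9 and 50.1 CPM with LiCl and 189.7, 167 and 192 CPM with dexamethasone + LiCl (1.84 ± 0.10, adjusted p = 4.74e-09). Sgk1, given above with the receptor targets, was also among the rises. The groups did not overlap in either gene.

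The steroid step with LiCl was set beside the same step without LiCl, in libraries that the first comparison did not use. Without LiCl, dexamethasone against control changed 355 genes, 196 higher (1.56% of the genes tested) and 159 lower (1.26%). With no minimum fold, 686 rose (5.44%) and 696 fell (5.52%). The lists of called genes shared 194 genes that changed in the same direction, 135 higher and 59 lower, and no gene was called in opposite directions. These 194 are 77.0% of the genes called with LiCl and 54.6% of those called without. Over all 12602 genes the log2 changes with and without LiCl correlated at r = 0.784 (Spearman's rho 0.509), a description across genes, which are not independent and share library depth and low counts.

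Called with LiCl alone were 58 genes. Of these, 56 had the same sign without LiCl, 31 had an adjusted p under 0.05 there with a smaller fold, and 0 passed edgeR's test of the difference between both steps, against 22 at an unadjusted p under 0.05 and 1, Fabp4, by DESeq2. Called without LiCl alone were 161 genes, of which 155 had the same sign with LiCl and 77 passed there with a smaller fold. Of the 194 shared genes, 136 had the smaller absolute change in the presence of LiCl. Of all 252 genes called with LiCl it was 137, so the share depends on the list taken. The share over all genes tested was not counted. In the plot of both steps, Cd163, Zbtb16, Hif3a, Sox7 and Mmp9 lie nearer to 0 with LiCl and Fabp4 lies further from it. Of these genes, Hif3a alone passed edgeR's test of the difference.

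**Figure D4:**
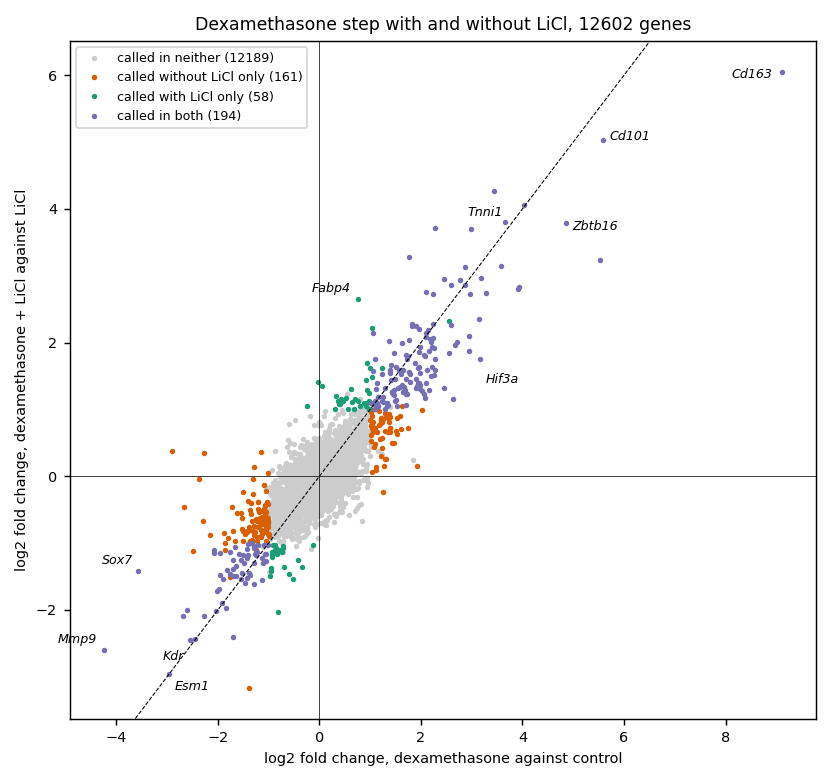
Log2 fold change of dexamethasone + LiCl against LiCl (vertical axis) and of dexamethasone against control (horizontal axis) for 12602 genes, coloured by where each gene was called, with the line of equal change dashed. The 194 genes called in both comparisons lie at the upper right and the lower left, where both changes have the same sign.

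The difference between both steps was tested as an interaction. At an adjusted p under 0.05 it passed for 1 gene, 0.00794% of those tested, with 708 at an unadjusted p under 0.05. DESeq2 gave 25 genes and the replicate block 2. Of the 25, 23 had the same sign in both steps and 23 had the smaller absolute change with LiCl. The gene that passed was Hif3a, a subunit of the hypoxia-inducible factors that lacks much of the activating power of its relatives. It lay at 36.8, 45.8 and 48.1 CPM with LiCl and 147, 139.96 and 154 CPM with dexamethasone + LiCl, a rise of 1.75 ± 0.14 (adjusted p = 6.3e-07). Without LiCl it lay at 22.3, 14.3 and 24.03 CPM in control and 191, 172 and 186 CPM with dexamethasone, a rise of 3.16 ± 0.15 (adjusted p = 1.48e-09). The steps differed by -1.41 ± 0.20 (adjusted p = 0.0418). The pass was lost without control library 1, LiCl library 2, LiCl library 3 or any library that held dexamethasone, with an adjusted p of up to 0.248.

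Other genes are given as values chosen after they were seen, since edgeR's test of their difference did not pass. By DESeq2 it passed for Cxcr4, Sox7, Fabp4 and Col10a1. That of Cxcr4 and Sox7 also passed with no count filter, and that of Fabp4 with the replicate block. Cxcr4, the chemokine receptor of vessels and blood cells, changed by -1.15 ± 0.11 with LiCl and -2.08 ± 0.12 without (adjusted p of the difference 0.151). Sox7, an endothelial transcription factor, changed by -1.41 ± 0.25 and -3.58 ± 0.35 (adjusted p of the difference 0.282). Both genes had the smaller change in the presence of LiCl. Fabp4 changed by 2.65 ± 0.31 with LiCl and 0.76 ± 0.27 without (adjusted p of the difference 0.375). Col10a1 changed by 0.98 ± 0.15 and 0.11 ± 0.15 (adjusted p of the difference 0.382). For Col10a1 the mean level was 1295 CPM with LiCl and 2631 CPM in control, and with dexamethasone 2553 CPM and 2841 CPM, so that the groups differed most in LiCl without the steroid. Inhba changed by -0.71 ± 0.12 with LiCl and -0.06 ± 0.12 without (adjusted p of the difference 0.394).

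**Figure D5:**
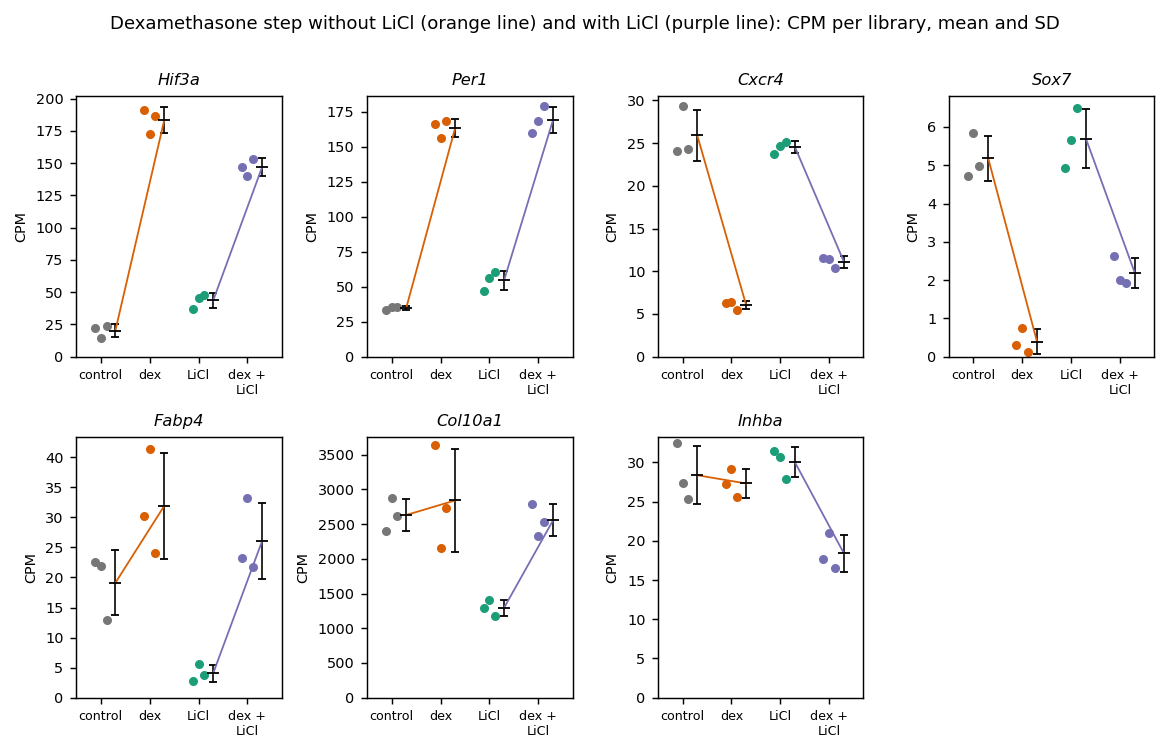
Levels of 7 genes in CPM (linear axes from 0) in each of the 12 libraries, with lines that join the means of control and dexamethasone (orange) and of LiCl and dexamethasone + LiCl (purple), and bars for the SD of 3 pools. The orange line of Hif3a climbs more steeply than the purple line, and for Col10a1 and Fabp4 the purple line starts lower; edgeR's test of the difference passed for Hif3a alone of the 7, and that of DESeq2 for each of them but Inhba.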

How the data were processed

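RNA-seq libraries of cultured fetal rat metatarsals were analysed from the deposited raw counts, 1 table of gene symbols per library. The authors stated that they used a strand-specific kit, Subread for alignment, Picard to remove duplicates and HTSeq-count to count. By their account, technical replicates were merged after counting. Duplicates shared between technical replicates can therefore remain in the counts. Reads carried no molecular tags, and the totals speak for counting error only. A human build (hg19, GRCh37) is listed in the submitters' processing notes although the animals were rats. The genome and annotation used for counting are therefore unsettled, and no coordinates are given for counted genes. Promoter sequences come from RefSeq (GRCr8), matched by symbol.

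The study's filter, 60 counts or more in 2 or more libraries, was applied. All 12 libraries entered a single edgeR 4.0.16 fit in R 4.3.3 on TMM-scaled counts (robust quasi-likelihood F-test, two-sided, condition as the only term, Benjamini-Hochberg adjustment over 12602 genes). The contrasts were dexamethasone + LiCl against LiCl, dexamethasone against control, and the difference of both. Called genes passed an adjusted p of 0.05 and a fold over 2 or under 0.5, and list members are counted at an adjusted p of 0.05 with no minimum fold. The SE is the log2 fold change divided by the root of the F statistic. Summaries were made in Python 3.11.15 with pandas 2.3.3, and plots with matplotlib 3.10.9. The test of dexamethasone + LiCl against LiCl, by edgeR and by DESeq2, was first run on simulated data that held known changes. The other contrasts were not scored on simulated data.

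The labels number the libraries of each group and do not say what a number marks. Once group means had been subtracted, same-numbered libraries in dexamethasone + LiCl and LiCl correlated at 0.279, 0.413 and 0.278, against -0.291 to 0.0017 for different numbers. In dexamethasone and control, same numbers gave 0.072, 0.027 and 0.170, and different numbers -0.14 to 0.078, with overlap. Deviations from a group mean cancel out within the group, so positive values for same numbers draw the others down. Whether a number marks a shared source is therefore not settled by these values. By the paper's account each pool held bones of a single rat, and the groups shared the rats. It does not say whether the numbers mark the rats. A fit that adds the number as a covariate (replicate block) serves as an alternative only. It is quoted where it ended or added a call given in the text or moved a count by more than 1.5 times.

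The lists hold 764 genes in 46 lists, of which 603 were tested. They, the comparison and the tests were chosen with earlier results of these data known. Genes named are the 15 largest rises and 15 largest falls with separated pools, up to 6 genes per list ranked by adjusted p, all glucocorticoid receptor targets and drug targets, and the 10 smallest p-values of the interaction. Not all are printed. Members that define a tissue or pathway (Col2a1, Acan, Sox9, Pecam1, Cd68, Runx2, Alpl, Ihh, Ptch1), Emr1, Sox7 and Map3k6 were added after values were seen. The alternatives were DESeq2 1.42.0, RLE scaling, edgeR's filterByExpr, no count filter, no minimum fold, the replicate block, a fit of the 6 libraries alone, each library left out, thinning to the smallest library, and edgeR without robust estimation. The last was added after the data were seen. A deposited cross-tabulation of all libraries was not used, since the tables per library served.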

Additional observations from a re-analysis of the deposited data

Results flagged for a closer look

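The dexamethasone step of Hif3a differed with and without LiCl. The difference of the log2 fold changes was -1.41 ± 0.20 (edgeR adjusted p = 0.0418), from a rise of 3.16 without LiCl to a rise of 1.75 with LiCl. It was the only gene of 12602 to pass this test, and the next smallest adjusted p was 0.145.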

How the results depend on the processing

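The number of genes called in dexamethasone + LiCl against LiCl was 252, and it was 260 by DESeq2, 253 with RLE scaling, 259 with the replicate block, 254 in a fit of the 6 libraries, 253 without robust estimation and 204 after thinning to the smallest library, which also tested fewer genes (11367). With 1 library left out it was 230 to 255 in total, 162 to 170 higher and 66 to 86 lower. It was 391 with filterByExpr (262 higher, 129 lower), 417 with no count filter (275 higher, 142 lower) and 867 with no minimum fold (478 higher, 389 lower), by construction with more genes tested or admitted. Dexamethasone against control gave 355, and 544, 616 and 1382 in those 3 settings, with 339 to 368 when 1 library was left out. The interaction gave 1 gene, 25 by DESeq2, 16 with no count filter, 2 with the replicate block and 0 to 2 with 1 library left out, and the cause was not tested. Of the 252 calls, 193 (76.6%) were kept after thinning and 86.9% to 99.6% with 1 library left out. Of 300 named genes, 153 passed, 115 of them in each alternative that tested them, of up to 20, and 0 reversed. With the replicate block 0 of these calls were lost and 24 named genes were added. Under RLE scaling the median over all genes shifted by 0.00107. Depth limits what can be read for genes near the count minimum, of 23569 symbols with a count 12602 were tested.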
